A study of Mus musculus with 27 samples.

Results

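The 38 genes described here serve cell division, and they were chosen by function and symbol, with earlier results of these data known. They comprise the division marker Mki67 and the DNA topoisomerase Top2a, 6 genes of cyclins and their kinase, 9 of the replication origin and fork, 4 of deoxynucleotide synthesis, the transcription factor Foxm1, 8 of mitotic kinases, the spindle checkpoint and mitotic exit, and 8 of the kinetochore and spindle. All 38 were among the 21742 gene symbols of the deposited table of linear RNA, and all 38 were among the 17437 genes tested.

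RNA was sequenced from the left lobe of the lung of BALB/c AnNHsd mice, a common inbred strain, at an age of 87 days. In the Dex_CDGHDM group (n = 6) the lungs were sensitized with house dust mite extract (HDM) and cyclic di-GMP (CDG), a bacterial signalling molecule used as a mucosal adjuvant, and the mice were given 3 intraperitoneal doses of the glucocorticoid dexamethasone at 3 mg/kg each. In the AM155 group (n = 6) mice were given 3 intravenous doses, at 2 mg/kg each, of an antisense oligonucleotide against miR-155 in TheraSilence lipid nanoparticles. Both drugs were given on days 11, 18 and 25 of a protocol of 35 days. The CDG_HDM group (n = 10) was sensitized without a drug, and the Saline group (n = 5) was not sensitized. The labels do not say in words that the AM155 mice were sensitized, no mice given empty nanoparticles or vehicle were analysed here, and all groups were of the same strain with no altered gene named. Nothing in the labels says that each library came from a separate mouse, so p-values measure the spread between these libraries.

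A cell that divides first licenses its replication origins by loading MCM helicases, then copies its DNA in S phase and separates the copies in mitosis. Cyclins and their kinases drive these steps in order, and many of the genes involved are transcribed only in cycling cells, under control of E2F factors before S phase and of MuvB complexes with B-MYB and FOXM1 before mitosis. Most cells of an adult lung rest outside the cycle, and in allergic inflammation lymphocytes, macrophages and epithelial cells can enter it.

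Levels are given in TPM, the share of a library's transcripts after division by gene length, in parts per 1e6. A gene was called higher or lower where limma's moderated test on log2(TPM + 1), adjusted by Benjamini-Hochberg over all genes tested, gave an adjusted p under 0.05. Changes are log2 differences on that scale ± SE, which understate the change of genes at few TPM. Over the 27 libraries the members' median levels ran between 1.96 TPM for Bub1 and 87.5 TPM for Stmn1, and 33 of 38 had a median of 15 TPM or less. TPM in the linear table summed to 629353 to 767968 in Dex_CDGHDM, 542264 to 770987 in AM155, 628177 to 798457 in CDG_HDM and 806446 to 858506 in Saline libraries, so that a larger share of the scale lay outside this table after sensitization. That shift lowers the TPM of all genes in the table together, and the median change of all genes tested was -0.10 for CDG_HDM minus Saline.

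Sensitization went with higher RNA of 16 of the 38 genes and lower RNA of 1, Stmn1, while 21 were not called. Of all genes tested 32.2% were called in this comparison, 9.35% higher and 22.8% lower. At an unadjusted p under 0.05 there were 24 members, and 41.8% of all genes. The median change of the 38 genes was 0.25, with 33 above 0 and 5 below, against -0.10 for all genes tested. The largest rises were those of Top2a, Rrm2, Mki67 and Bub1b, with log2 changes of 0.65 to 0.94. In 7 members every CDG_HDM library lay above every Saline library, where 5.06% of all genes tested did so, and in Stmn1 every one lay below, where 8.92% did so. In RNA of whole lung tissue, a different number of dividing cells and a different amount of RNA per dividing cell cannot be told apart.

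Top2a (chr11:98992943-99024189, minus strand, GRCm38, GENCODE M21), the topoisomerase that untangles DNA for chromosome segregation, lay at 10.2, 12.1 and 14.9 TPM (lowest, median and highest library) in Dex_CDGHDM, 9.00, 12.8 and 16.5 TPM in AM155 and 7.70, 10.3 and 16.6 TPM in CDG_HDM libraries, against 3.82, 4.34, 4.95, 5.64 and 6.49 TPM in the Saline libraries. The Saline libraries lay below all 22 others. The ranges of the other 3 groups overlapped, with 4 CDG_HDM libraries below every Dex_CDGHDM and AM155 library. Its mean was 10.8 ± 2.94 TPM in CDG_HDM and 5.05 ± 1.05 TPM in Saline libraries (SD, n = 10 and 5), a 2.14-fold difference (log2 change 0.94 ± 0.15, limma adjusted p = 1.07e-05).

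Mki67 (chr7:135689784-135716361, minus strand), which encodes the Ki-67 protein found in cycling cells, lay at 10.4 to 14.0 TPM in Dex_CDGHDM, 8.43 to 16.2 TPM in AM155 and 8.00 to 17.2 TPM in CDG_HDM libraries, against 5.395, 5.48, 6.00, 6.03 and 7.51 TPM in Saline. The median was 12.8 TPM in AM155 and 11.15 TPM in CDG_HDM libraries, and again no library of the other 3 groups fell as low as the highest Saline library. Mean levels were 11.5 ± 3.04 TPM in CDG_HDM and 6.08 ± 0.85 TPM in Saline libraries (SD, n = 10 and 5), with a log2 change of 0.79 ± 0.14 (limma adjusted p = 6.39e-05).

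Rrm2 and Rrm1 encode the small and the large subunit of ribonucleotide reductase, the enzyme that makes deoxynucleotides, and of this pair Rrm2 alone was called. Rrm2 (chr12:24708241-24714146, plus strand) lay at 3.82, 5.49 and 9.81 TPM (lowest, median, highest) in CDG_HDM libraries, against 1.82, 2.83, 2.90, 3.08 and 3.24 TPM in Saline libraries, and rose by 0.81 ± 0.15 (limma adjusted p = 7.69e-05). Rrm1 lay at 9.12, 11.6 and 13.8 TPM in CDG_HDM libraries, against 11.2, 11.3, 11.7, 12.3 and 12.7 TPM in Saline, and was not called (log2 change -0.03, 95% interval -0.21 to 0.15). The ratio of Rrm2 to Rrm1 within a library does not depend on how the library is scaled, and it was 0.495 to 0.567 in Dex_CDGHDM, 0.437 to 0.655 in AM155 and 0.356 to 0.713 in CDG_HDM libraries, against 0.156, 0.250, 0.251, 0.255 and 0.256 in Saline. Every Saline library had a lower ratio than every other library. This pair and those below were set side by side after their levels had been seen, so their ratios are a description. The ratios of Mcm6 to Mcm4, Ccne1 to Ccne2, Bub1b to Bub1 and Aurkb to Birc5, drawn up likewise, overlapped between CDG_HDM and Saline libraries. Their lowest CDG_HDM values were 0.635, 0.365, 1.56 and 0.242, and their highest Saline values 0.681, 0.431, 1.84 and 0.258. Of the other nucleotide genes, Tk1, the thymidine kinase of the salvage pathway, rose by 0.31 ± 0.09 (limma adjusted p = 0.00707), with 19.96 to 27.8 TPM in CDG_HDM and 17.5 to 20.3 TPM in Saline libraries. Tyms, the thymidylate synthase, was not called (log2 change 0.03, interval -0.13 to 0.20).

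**Figure D1:**
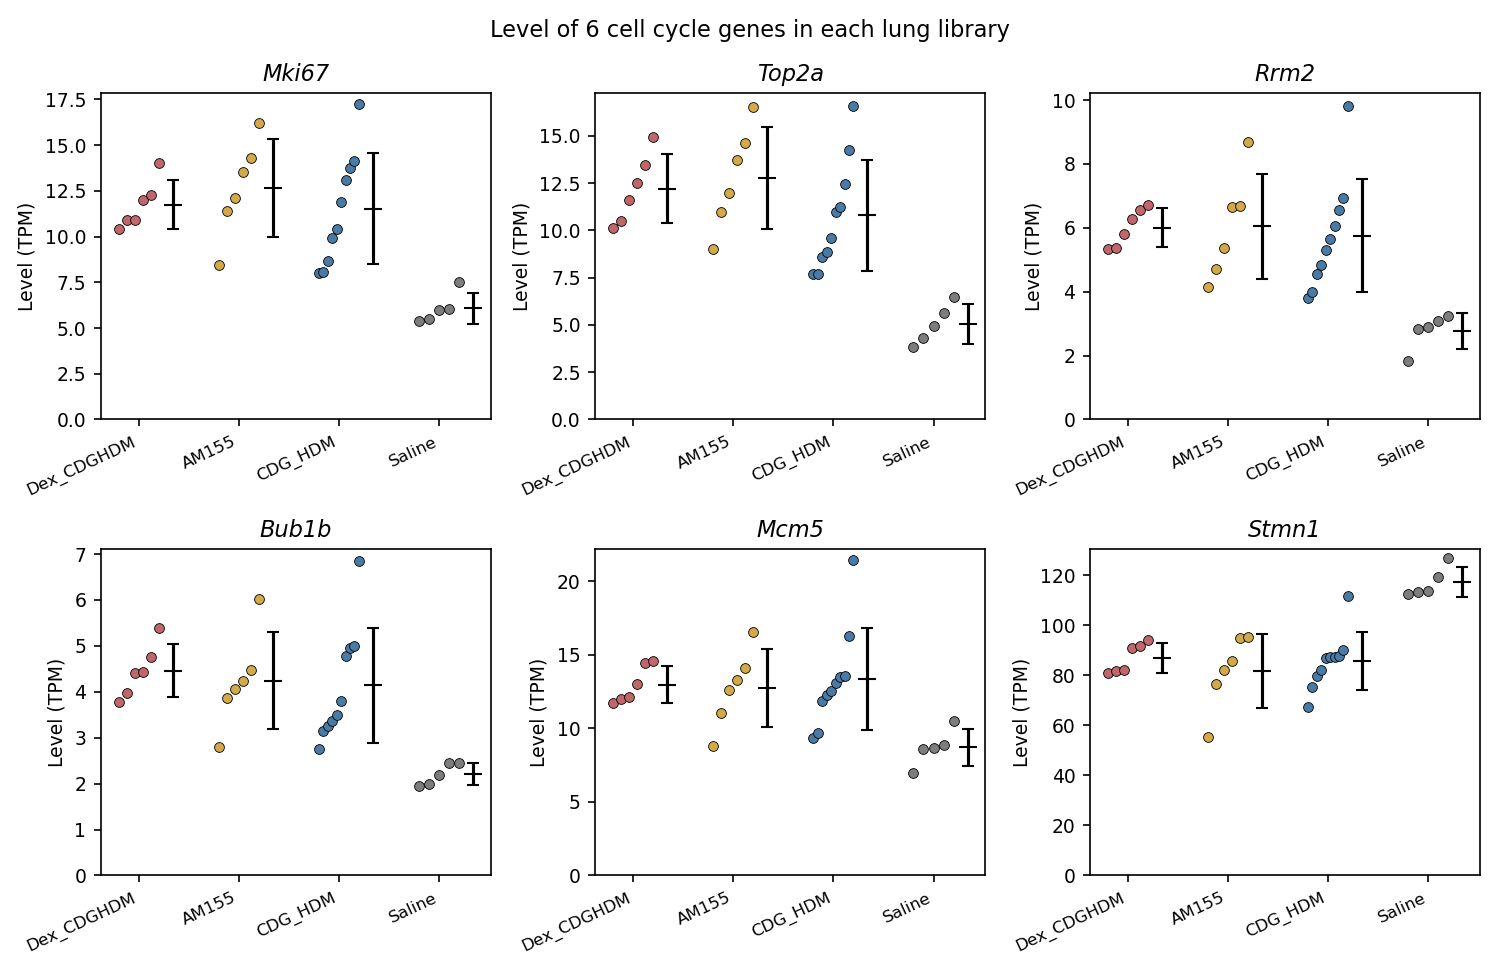
Level in TPM (linear axis that starts at 0) of 6 of the genes in each library of the 4 groups; points are libraries sorted by value, and the bars beside them give the mean and SD. Top2a, Mki67, Rrm2 and Bub1b have every Saline library below every other one, Mcm5 overlaps between 8.80 and 10.5 TPM, and Stmn1 has all Saline libraries on top.

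The stretch around the RefSeq transcription start (GRCm38.p6), with 120 bases before it and 30 after it, is shown for the members whose CDG_HDM and Saline libraries did not overlap upward and that had a window, together with Mcm5 as the MCM gene with the largest change and Birc5, which was not called. Capitals mark the letters searched for, on both strands. The cell cycle genes homology region (CHR), which MuvB complexes bind, was searched as TTTGAA and in its variant form with a central CG pair, TTCGAA. The box that the factor NF-Y binds was searched as CCAAT. On the opposite strand that box reads ATTGG, while the plain form of the CHR reads there, in the same direction, TTCAAA. For the E2F factors 4 forms were searched, of which the classical form is TTCCCGC. A form with a GG pair after the leading thymines is TTGGCGC. A form with CG in that place is TTCGCGC. The remaining form, which has GC there, is TTGCCGC.
Top2a (chr11:99024160-99024309, minus strand): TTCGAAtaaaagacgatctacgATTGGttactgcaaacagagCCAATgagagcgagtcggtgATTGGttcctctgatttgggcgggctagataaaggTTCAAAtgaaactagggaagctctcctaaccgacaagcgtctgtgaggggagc
Mki67 (chr7:135716350-135716499, minus strand): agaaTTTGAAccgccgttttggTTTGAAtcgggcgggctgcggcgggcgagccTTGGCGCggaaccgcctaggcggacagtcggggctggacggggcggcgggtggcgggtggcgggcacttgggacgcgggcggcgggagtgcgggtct
Rrm2 (chr12:24708134-24708283, plus strand): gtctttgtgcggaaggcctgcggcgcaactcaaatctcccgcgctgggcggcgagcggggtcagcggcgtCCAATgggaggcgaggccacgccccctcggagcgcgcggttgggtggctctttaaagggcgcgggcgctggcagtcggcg
Bub1b (chr2:118598091-118598240, plus strand): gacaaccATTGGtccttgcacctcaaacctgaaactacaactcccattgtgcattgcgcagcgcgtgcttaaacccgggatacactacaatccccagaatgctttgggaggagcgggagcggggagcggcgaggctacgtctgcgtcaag
Ccnb2 (chr9:70421525-70421674, minus strand): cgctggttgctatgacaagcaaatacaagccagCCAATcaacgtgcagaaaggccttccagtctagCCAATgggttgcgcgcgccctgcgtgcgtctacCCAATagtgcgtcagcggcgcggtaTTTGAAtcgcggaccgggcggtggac
Kif11 (chr19:37376262-37376411, plus strand): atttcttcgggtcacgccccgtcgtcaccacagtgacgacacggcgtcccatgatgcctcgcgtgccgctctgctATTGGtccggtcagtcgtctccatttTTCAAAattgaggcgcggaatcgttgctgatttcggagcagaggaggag
Mcm5 (chr8:75109389-75109538, plus strand): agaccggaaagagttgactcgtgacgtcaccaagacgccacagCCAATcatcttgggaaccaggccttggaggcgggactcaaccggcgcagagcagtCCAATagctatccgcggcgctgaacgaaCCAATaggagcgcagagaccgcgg
Birc5 (chr11:117849117-117849266, plus strand): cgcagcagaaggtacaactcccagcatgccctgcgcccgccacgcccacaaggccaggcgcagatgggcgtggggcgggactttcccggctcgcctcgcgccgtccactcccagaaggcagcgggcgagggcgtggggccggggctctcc

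Top2a, Ccnb2 and Kif11 held both a CHR and a CCAAT in the printed stretch, Mki67 a pair of CHR copies and an E2F form, Rrm2, Bub1b and Mcm5 CCAAT alone, and Birc5 held none of these letters there. RefSeq windows of 250 bases before and 50 after the start were at hand for 30 of the 38 genes, 31 windows in all, and none for Aurkb, Ccna2, Ccne2, Foxm1, Kif20a, Mcm4, Stmn1 and Tpx2. Among these 31 windows 51.6% held a CHR, 80.6% a CCAAT and 35.5% an E2F form, against 19.2%, 37.4% and 9.57% of all 32851 windows. Windows of the members called higher held a CHR in 6 of 12 and a CCAAT in 10 of 12, and those of the members not called in 10 of 19 and 15 of 19, so these shares were within 5 percentage points of each other. An E2F form was held by 6 of 12 windows of the members called higher and by 5 of 19 of those not called (50% and 26.3%), a difference that was not tested. A match is a run of letters, and binding was not measured.

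Among the cyclins and their kinase, 4 of 6 were called higher and none lower, with a median change of 0.34. This compares with 9.35% higher and 22.8% lower of all genes tested. Ccnb2 (chr9:70407692-70421547, minus strand), a B-type cyclin that partners Cdk1 in mitosis, lay at 3.73, 5.08 and 8.09 TPM in CDG_HDM libraries (lowest, median, highest), against 2.98, 3.05, 3.26, 3.33 and 3.60 TPM in Saline. The groups did not overlap, and the change was 0.50 ± 0.12 (limma adjusted p = 0.00166). Cdk1, the mitotic kinase itself (chr10:69335146-69352938, minus strand), lay at 7.34 to 10.5 TPM in CDG_HDM libraries, against 3.71, 6.40, 7.04, 7.12 and 7.53 TPM in Saline. It rose by 0.43 ± 0.12 (limma adjusted p = 0.00412), and 2 CDG_HDM libraries lay below the highest Saline library. Ccne1, which drives entry into S phase, rose by 0.37 ± 0.12 (limma adjusted p = 0.0172), and Ccna2, the cyclin of S phase and G2, by 0.31 ± 0.12 (limma adjusted p = 0.0411). Ccna2 stood close to the threshold and was called in 25 of 38 alternative settings. Their relatives Ccne2 (log2 change -0.09, interval -0.29 to 0.10) and Ccnb1 (0.18, interval -0.13 to 0.48) were not called. The ratio of Ccnb2 to Ccnb1 was 0.884 to 1.30 in CDG_HDM and 0.667 to 0.901 in Saline libraries, so these ranges overlapped.

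Of the 9 replication genes 3 were called higher, against 9.35% of all genes tested, and all 9 changes were above 0 (median 0.26). The 3 were all subunits of the MCM2-7 helicase that opens the DNA. Mcm5 (chr8:75109569-75128439, plus strand) lay at 9.34, 12.8 and 21.4 TPM in CDG_HDM libraries (lowest, median, highest), against 6.96, 8.63, 8.65, 8.87 and 10.5 TPM in Saline, and rose by 0.54 ± 0.13 (limma adjusted p = 0.0024). Mcm6 lay at 6.67, 9.00 and 13.6 TPM in CDG_HDM libraries, against 5.12, 5.59, 5.70, 6.21 and 7.69 TPM in Saline, and rose by 0.50 ± 0.12 (limma adjusted p = 0.00203). Mcm3 rose by 0.32 ± 0.12 (limma adjusted p = 0.0385), a call kept in 30 of 38 settings. The other 3 subunits were not called, at 0.26 for Mcm2, 0.07 for Mcm4 (interval -0.12 to 0.27) and 0.06 for Mcm7 (interval -0.15 to 0.28), although all 6 proteins enter the ring in equal number. Within libraries the ratio of Mcm5 to Mcm4 was 1.09 to 1.30 in Dex_CDGHDM, 1.05 to 1.27 in AM155 and 0.953 to 1.56 in CDG_HDM libraries, against 0.673, 0.830, 0.855, 0.860 and 0.930 in Saline. It was lower in every Saline library than in any other.

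The other replication genes stayed short of the threshold. Pcna, the sliding clamp of the DNA polymerases, lay at 51.0, 64.5 and 74.7 TPM in CDG_HDM libraries, against 52.3, 53.8, 54.6, 55.8 and 57.1 TPM in Saline, with a change of 0.21 and a limma adjusted p of 0.053. Cdc45, a helicase subunit at the fork, stood at 0.31 (adjusted p = 0.0663) and Cdc6, which loads the MCM ring, at 0.24 (adjusted p = 0.134). Pcna passed the threshold in 11 of 38 other settings and Cdc45 in 9.

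Foxm1, the factor that switches on mitotic genes, was not called either. It lay at 2.11, 3.30 and 5.21 TPM in CDG_HDM libraries, against 2.25, 2.37, 2.37, 2.60 and 3.33 TPM in Saline (log2 change 0.24, interval -0.02 to 0.51, limma adjusted p = 0.148).

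Of the 8 genes of mitotic kinases, the checkpoint and mitotic exit, 2 were called higher and none lower (median 0.23). The shares of all genes tested were 9.35% higher and 22.8% lower. Bub1b (chr2:118598211-118641591, plus strand), which encodes the checkpoint protein BubR1, lay at 2.76, 3.64 and 6.85 TPM in CDG_HDM libraries, against 1.95, 2.00, 2.19, 2.45 and 2.45 TPM in Saline. The groups did not overlap, and the rise was 0.65 ± 0.13 (limma adjusted p = 0.000337). Aurkb (chr11:69045647-69051664, plus strand), the kinase of the chromosomal passenger complex, lay at 6.24, 6.98 and 8.56 TPM in CDG_HDM libraries, against 4.48, 5.17, 5.42, 5.63 and 5.88 TPM in Saline, and rose by 0.37 ± 0.09 without overlap (limma adjusted p = 0.00306). Its partner in that complex, Birc5 or survivin, lay at 20.6, 24.3 and 26.4 TPM in CDG_HDM libraries, against 17.4, 25.9, 26.98, 27.7 and 28.0 TPM in Saline, and was not called (log2 change -0.04, interval -0.23 to 0.15). Of the Saline libraries, 4 lay above the CDG_HDM median of Birc5 and Saline 4 lay below all CDG_HDM libraries. Bub1 and Ube2c, a checkpoint kinase and the ubiquitin-conjugating enzyme of mitotic exit, missed the threshold at 0.26 and 0.24 (adjusted p = 0.0649 and 0.0641), and Plk1, Cdc20 and Aurka stood at 0.22, 0.18 and 0.08.

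Kinetochore and spindle genes split 3 higher and 1 lower of 8 (median 0.16), where 9.35% of all genes tested were higher and 22.8% lower. Kif11 (chr19:37376403-37421859, plus strand), the motor that pushes spindle poles apart, lay at 2.83, 3.26 and 4.93 TPM in CDG_HDM libraries, against 2.11, 2.14, 2.24, 2.27 and 2.38 TPM in Saline, and rose by 0.45 ± 0.11 without overlap (limma adjusted p = 0.0013). Tpx2, which activates Aurora A on the spindle, rose by 0.36 ± 0.11 (limma adjusted p = 0.00825). Kif20a, a motor of cytokinesis, rose by 0.30 ± 0.11 (limma adjusted p = 0.0397), called in 28 of 38 settings. Cenpe, Cenpf, Kif23 and Nusap1 were not called, with changes of 0.11, 0.07, 0.21 and -0.02.

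Stmn1 (chr4:134468320-134473843, plus strand) encodes stathmin, a protein that takes microtubules apart and is also abundant in some cells that do not divide. It was the most abundant of the 38 genes and the only member called lower. It lay at 80.8 to 93.9 TPM in Dex_CDGHDM, 55.5 to 95.1 TPM in AM155 and 67.2, 87.2 and 111.6 TPM (lowest, median and highest) in CDG_HDM libraries, against 112.4, 113, 114, 119 and 127 TPM in Saline. No library of the other groups reached the lowest Saline library, though CDG_HDM 3 came within 1 TPM of it. The change was -0.46 ± 0.10 (limma adjusted p = 0.000724), and it was called lower in all 38 settings. Without Stmn1, the other 37 genes together summed to 336 to 410 TPM in Dex_CDGHDM, 270 to 450 TPM in AM155 and 291 to 476 TPM in CDG_HDM libraries, against 277, 298, 303, 330 and 347 TPM in Saline.

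**Figure D2:**
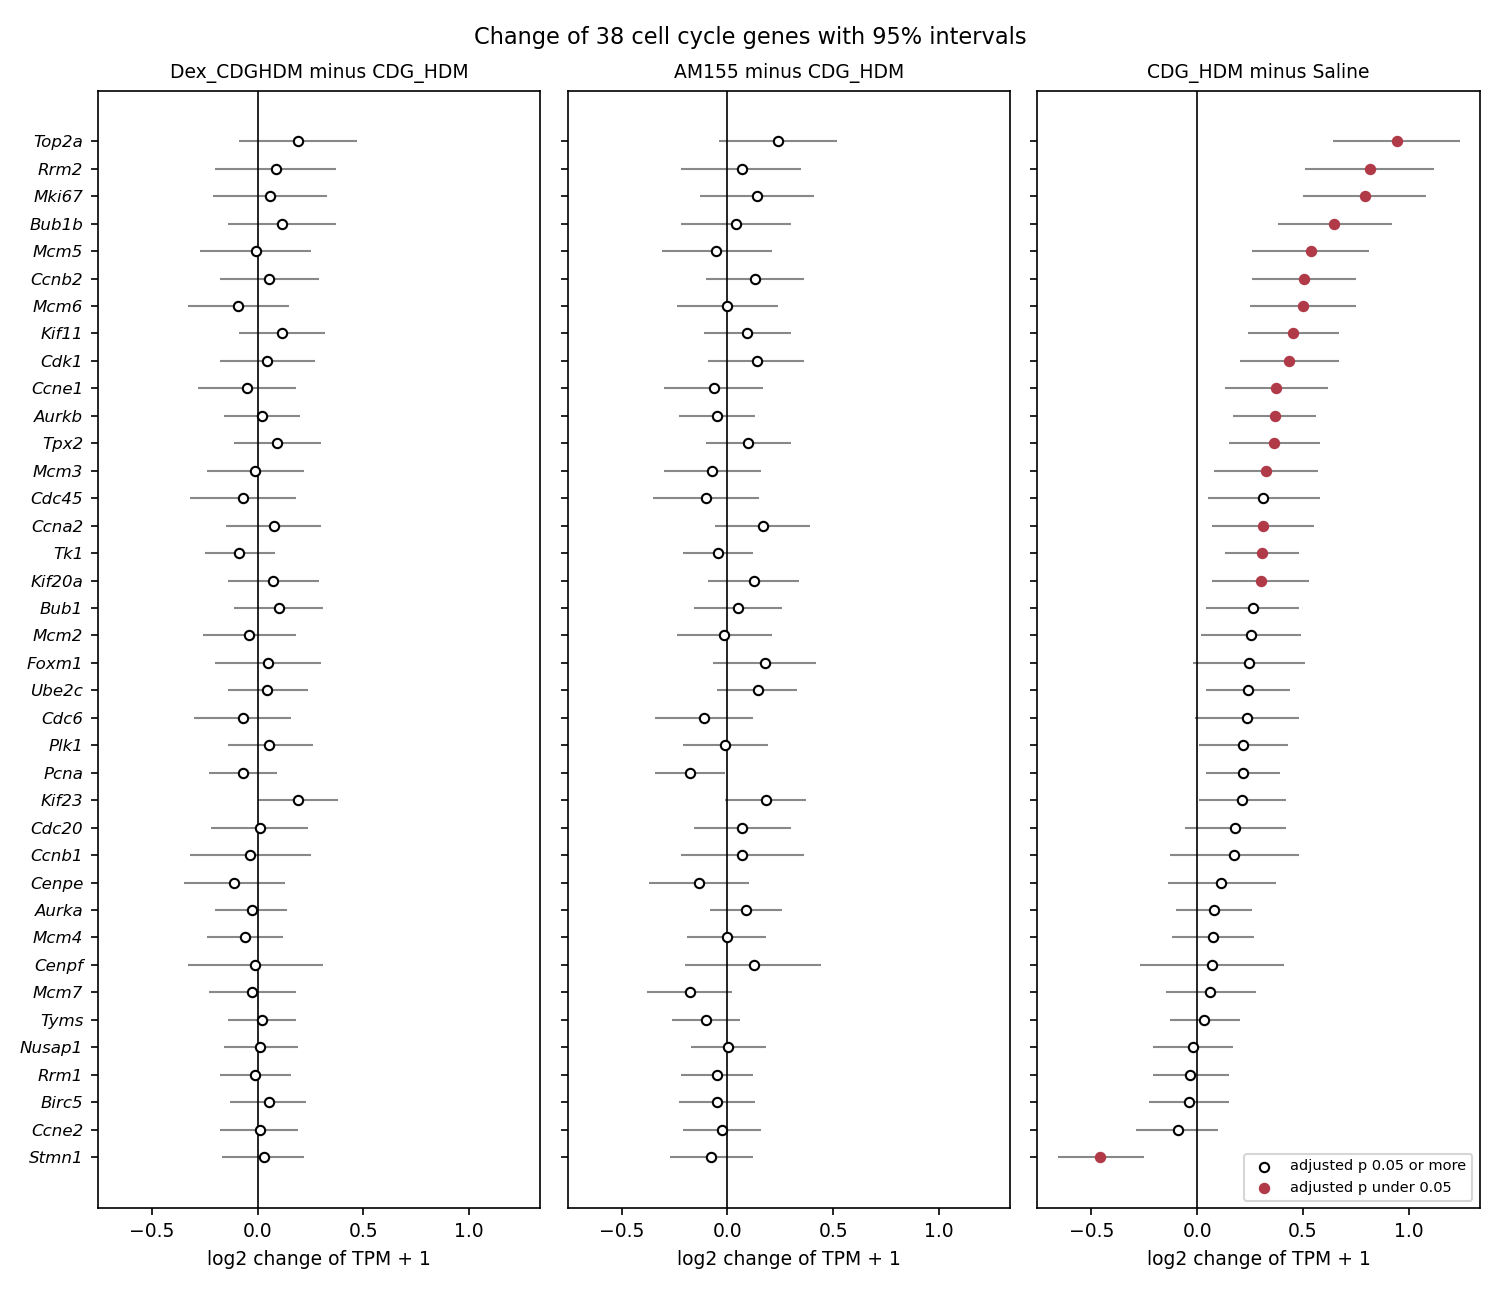
Change of each of the 38 genes on the log2(TPM + 1) scale (x axis) with its 95% interval in 3 comparisons, ordered by the change for CDG_HDM minus Saline; filled points passed an adjusted p of 0.05. In the right panel 16 genes are filled above 0 and Stmn1 below, and in both treatment panels all points are open and lie between -0.18 and 0.24.

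The number of members called higher depended on how libraries were scaled. Scaling by the median of ratios gave 29 (22.4% of all genes higher), quantile normalization 28 (20.5%) and rescaling the linear table to a common sum 30 (26.2%), and each of them moved the median of all genes to between -0.01 and 0.04. Of all genes called, 29.1% were higher as deposited, and 51.0%, 45.7% and 62.8% under these scalings. Leaving out Saline 2 lowered the members called higher to 12. Of the 17 members called, 13 were called in all 38 settings, and Ccne1, Ccna2, Mcm3 and Kif20a were the exceptions.

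Under dexamethasone no change of these genes was called relative to sensitized lungs without it. For Dex_CDGHDM minus CDG_HDM limma called 0 of 38 members, and 0.00573% of all genes tested. At an unadjusted p under 0.05 there was 1 member, Kif23, against 3.97% of all genes. The members' changes had a median of 0.02 and ran from -0.11 to 0.19, and no interval reached below -0.35. Kif23, a motor of the midbody, lay at 5.20, 5.68 and 6.35 TPM in Dex_CDGHDM libraries, against 3.75, 5.05 and 5.95 TPM in CDG_HDM (0.19 ± 0.09, limma adjusted p = 1). Top2a had an interval of -0.09 to 0.47, Mki67 of -0.21 to 0.33 and Rrm2 of -0.20 to 0.37, so a fall as large as their rise with sensitization lay outside each of these intervals. Of the 9 replication genes all 9 changes were below 0, at -0.09 to -0.01, each smaller than its SE.

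AntimiR-155 likewise left the 38 genes without a call. For AM155 minus CDG_HDM limma called 0 of 38 members, and 0.103% of all genes. At an unadjusted p under 0.05 there was 1 member, Pcna, against 7.24% of all genes. Changes had a median of 0.00 and ran from -0.18 to 0.24, and no interval reached below -0.38. Pcna lay at 44.3, 57.5 and 67.6 TPM in AM155 libraries, against 51.0, 64.5 and 74.7 TPM in CDG_HDM (-0.18 ± 0.08, limma adjusted p = 0.667). Top2a was 0.24 above its CDG_HDM level with an interval of -0.04 to 0.52, and Foxm1 0.18 with an interval of -0.07 to 0.42. Both treatment comparisons share the CDG_HDM libraries, and a p that misses the threshold does not show that levels were equal. Between the treatments, Dex_CDGHDM minus AM155 gave 0 of 38 by limma, none of them at an unadjusted p under 0.05, where 0.0803% of all genes were called and 7.37% had such a p. Its intervals ran from -0.49 to 0.38.

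Against Saline, both treated groups showed members above the unsensitized level. Dex_CDGHDM minus Saline called 15 members higher and 1 lower (7.59% and 17.5% of all genes), and AM155 minus Saline 18 higher and 1 lower (7.82% and 32.7% of all genes). These comparisons share the Saline libraries with the first one. In 13 members every Dex_CDGHDM library lay above every Saline library, where 5.28% of all genes did so, and in 7 members every AM155 library did, where 4.31% of all genes did. Stmn1 lay below in both, where 12.0% and 12.7% of all genes did. Under the 3 scalings above, Dex_CDGHDM minus Saline called 29, 26 and 32 members higher (18.1%, 16.8% and 25.5% of all genes) and AM155 minus Saline 30, 30 and 33 (20.2%, 18.7% and 26.9% of all genes). The median of all genes was -0.11 and -0.17 in these comparisons as deposited, and that of the members 0.28 and 0.26. Top2a stood 1.13 ± 0.16 above Saline in Dex_CDGHDM and 1.18 ± 0.16 in AM155 (limma adjusted p = 5.59e-06 and 2.2e-06), and Rrm2 0.90 ± 0.16 and 0.88 ± 0.16 (limma adjusted p = 0.000117 and 0.000106). Kif23, not called for CDG_HDM, was called higher in both at 0.40 ± 0.11 and 0.39 ± 0.11 (limma adjusted p = 0.0066 and 0.00548), as was Bub1 at 0.36 ± 0.12 and 0.31 ± 0.12 (limma adjusted p = 0.0249 and 0.0397). Neither gene differed by a call between the treated groups and CDG_HDM. Foxm1 was called in AM155 minus Saline at 0.42 ± 0.14 (limma adjusted p = 0.0195) and in neither of the others. Stmn1 was lower in both, with changes of -0.43 ± 0.11 in Dex_CDGHDM and -0.54 ± 0.11 in AM155 (limma adjusted p = 0.00488 and 0.000426).

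**Figure D3:**
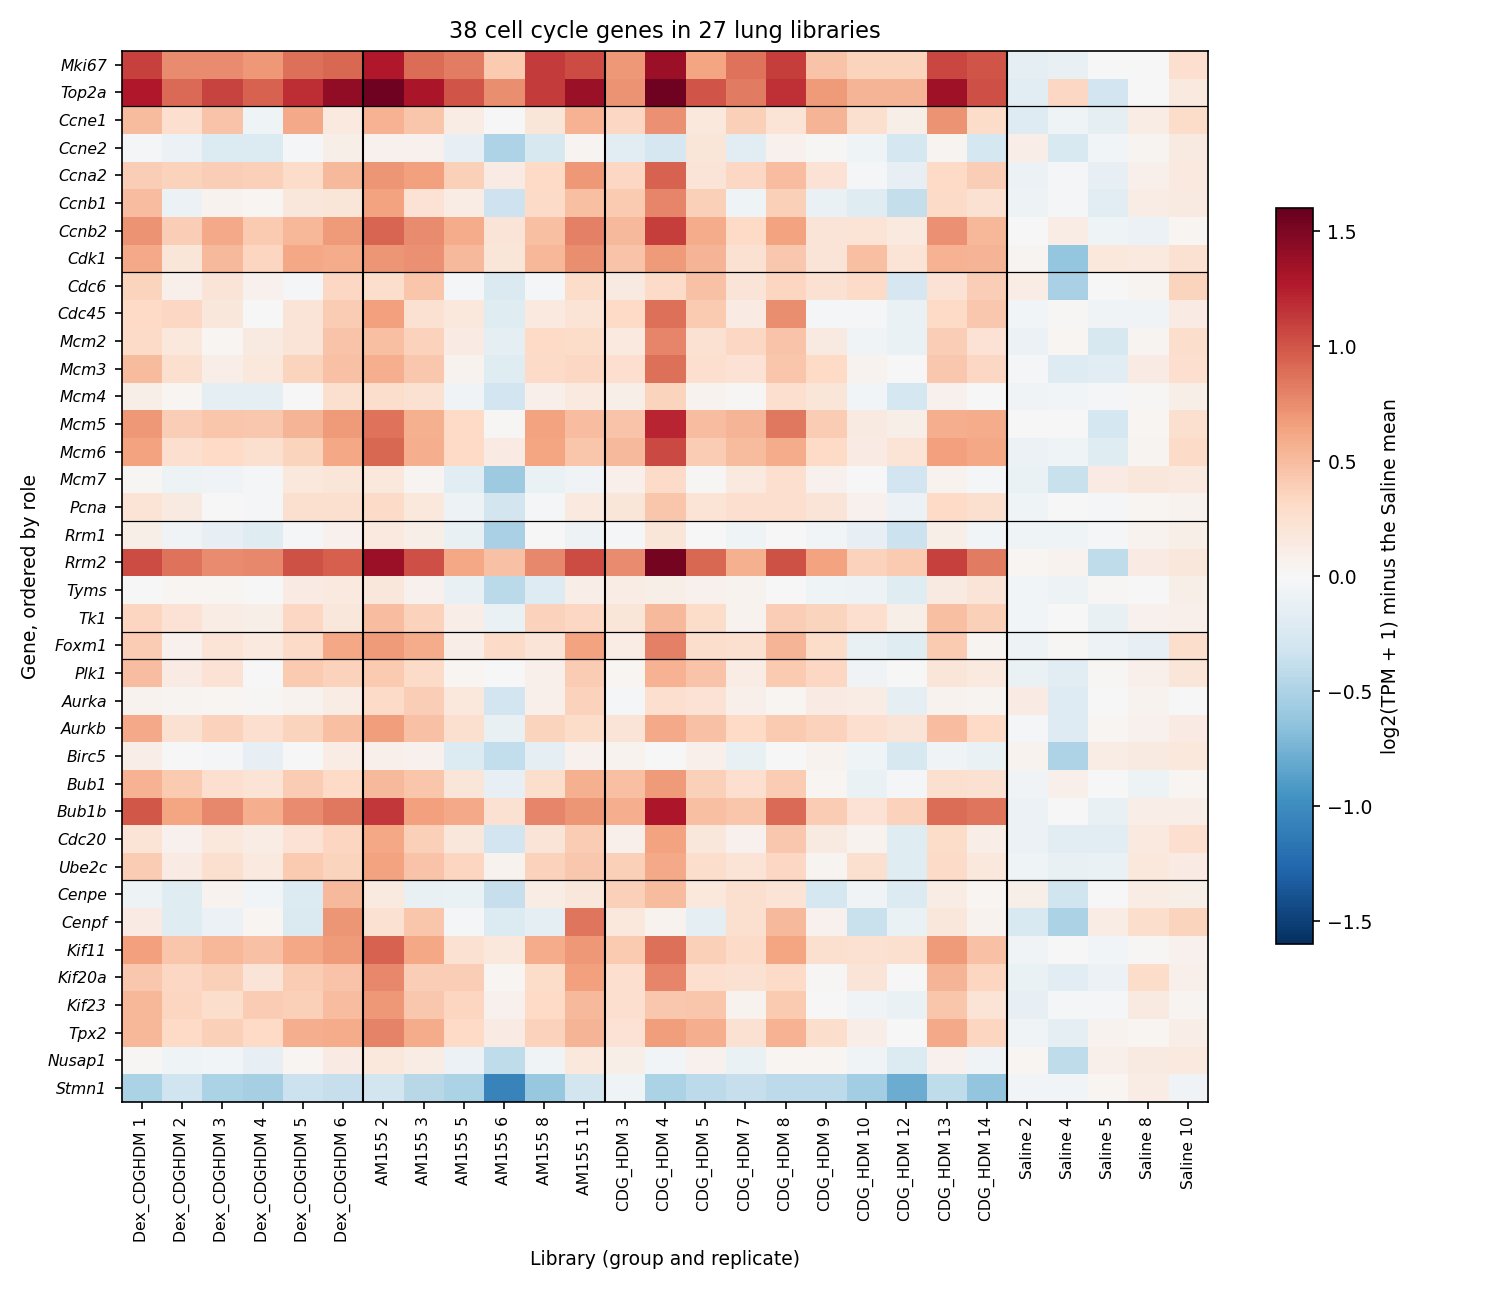
The 38 genes (rows, grouped by role) in 27 libraries (columns, grouped and separated by lines); colour gives log2(TPM + 1) minus the mean of the Saline libraries, red above and blue below. Mki67, Top2a, Rrm2 and Bub1b are red in all 22 libraries outside Saline, and Stmn1 is blue there. CDG_HDM 4 has the highest value of its group in 30 rows, AM155 2 in 31 and Saline 10 in 28.

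In CDG_HDM, AM155 and Saline, single libraries held the highest level of most members. CDG_HDM 4 had the highest level of its 10 libraries in 30 of 38 members (78.9%), against 13.1% of all genes tested, and AM155 2 the highest of 6 in 31 of 38 (81.6%), against 27.4% of all genes. Both counts were the same, 30 and 31, after the linear table was rescaled to a common sum. Saline 10 was the highest of 5 in 28 of 38 members (73.7%), against 32.7% of all genes, and after rescaling in 29, against 33.6%. In Dex_CDGHDM the highest level was spread over more libraries. As deposited 19 members (50%) were highest in Dex_CDGHDM 6 and 15 (39.5%) in Dex_CDGHDM 1, against 38.4% and 24.4% of all genes. Rescaling gave 13 in Dex_CDGHDM 1 and 10 each in Dex_CDGHDM 4 and Dex_CDGHDM 6, against 17.3%, 19.9% and 25.9% of all genes. Among 151 other cell cycle genes CDG_HDM 4 was highest in 81 (53.6%), AM155 2 in 81 (53.6%) and Saline 10 in 58 (38.4%). At the low end AM155 6 was lowest of its group in 37 members (97.4%) and in 85.0% of all genes. Rescaled, it was lowest in 17 members and in 22.9% of all genes. CDG_HDM 12 was lowest in 28 members (73.7%) and in 51.1% of all genes, and after rescaling in 3 members and 4.15% of all genes. CDG_HDM 10 was lowest in 7 members as deposited, and after rescaling in 17, against 6.26% and 8.61% of all genes. CDG_HDM 4 had the highest sums in its group of 14 T cell markers, at 509 TPM against 296 to 490 TPM in the other CDG_HDM libraries, and of 10 B cell markers, at 563 TPM against 254 to 471 TPM. It was not the highest for germinal centre B cell markers (156 TPM, with CDG_HDM 8 at 177 TPM) or plasma cell markers (3660 TPM, with CDG_HDM 14 at 4070 TPM). Nor was it for macrophage and dendritic cell markers (7580 TPM, with CDG_HDM 13 at 7980 TPM). CDG_HDM 14, with 490 TPM of T cell markers, was highest in 1 member. CDG_HDM 4 had the lowest sums in its group of endothelial and erythroid markers, 594 and 1410 TPM. It was also the lowest for alveolar type 2, ciliated cell and lung tissue markers, at 20200, 211 and 41500 TPM. The part of these markers in its high cell cycle RNA was not tested.

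The other genes of the cycle were taken from a list of 153 symbols, of which 151 were tested. For CDG_HDM minus Saline 41 of 151 (27.2%) were higher and 5 lower, with a median of 0.12. Of all genes tested 9.35% were higher and 22.8% lower. The checkpoint and recombination list (9.09% higher) and the E2F, pocket protein and MuvB list (5.56% higher) lay below that share of higher genes. So did the lists of G1 cyclins and of inhibitors of cyclin-dependent kinases, with 0% higher. The 34 genes of the spindle, condensin and cytokinesis gave 16 higher and none lower (median 0.30), and 10 chromatin and tubulin genes of dividing cells gave 5 higher (median 0.31). The 34 further replication genes gave 8 higher (median 0.09), the 22 kinetochore and checkpoint genes 5 (median 0.08), 9 regulators of cyclin-dependent kinases 5 (median 0.26) and 11 genes of DNA damage checkpoints and recombination 1 (median 0.03). Among the 18 E2F, pocket protein and MuvB genes 1 was higher and 1 lower (median 0.04), among 6 G1 cyclins and their kinases 1 was lower (median -0.01), and among 7 inhibitors of cyclin-dependent kinases 3 were lower (median -0.03).

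The largest rises in that list were those of Kif15, H2afx and Ncapg. Kif15, a spindle motor that works beside Kif11, lay at 3.34, 6.62 and 11.2 TPM in CDG_HDM libraries, against 1.36, 2.30, 2.41, 2.54 and 3.98 TPM in Saline (1.06 ± 0.19, limma adjusted p = 6.09e-05). H2afx, which encodes the histone variant H2AX, averaged 37.7 ± 15.1 TPM in CDG_HDM and 19.99 ± 3.48 TPM in Saline libraries (SD, n = 10 and 5), with CDG_HDM 4 at 75.3 TPM (0.82 ± 0.18, limma adjusted p = 0.000568). Ncapg, a condensin subunit, averaged 2.07 TPM in CDG_HDM and 0.803 TPM in Saline libraries without overlap (0.74 ± 0.12, limma adjusted p = 9.29e-06), and it shares exon bases with Lcorl on the opposite strand.

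The 5 genes called lower, where 22.8% of all genes tested were lower, included 3 of the 7 inhibitors of cyclin-dependent kinases. The other 4 inhibitors were not called, and the median of the 7 was -0.03, against -0.10 for all genes tested. Cdkn2b, which encodes the CDK4 and CDK6 inhibitor p15, lay at 12.8, 16.6 and 19.6 TPM in CDG_HDM libraries, against 22.7, 25.8, 26.1, 28.3 and 33.3 TPM in Saline, without overlap (-0.70 ± 0.11, limma adjusted p = 7.42e-06). Cdkn1c, which encodes the inhibitor p57, averaged 24.4 TPM in CDG_HDM and 41.4 TPM in Saline libraries (-0.75 ± 0.17, limma adjusted p = 0.000834). Cdkn2c fell by 0.24 (limma adjusted p = 0.0455) and Tfdp2, a partner of E2F factors, by 0.42 (limma adjusted p = 0.00869). The remaining gene called lower, Ccnd2, which encodes cyclin D2, changed by -0.34 (limma adjusted p = 0.00824) and was named after its value was seen. Cdkn1a, which encodes p21, was not called (0.06, interval -0.25 to 0.36), nor was E2f1 (0.03, interval -0.13 to 0.19), Mybl2, which encodes B-MYB (0.28, adjusted p = 0.119), or Ccnd1, which encodes cyclin D1 (-0.37, adjusted p = 0.0649). In Dex_CDGHDM minus CDG_HDM and in AM155 minus CDG_HDM limma called 0 of the 151, with 4 and 6 at an unadjusted p under 0.05. Of all genes tested 0.00573% and 0.103% were called, and 3.97% and 7.24% had such an unadjusted p. The 4 were Cdkn2c at 0.20, Rbl2 at -0.25, Lin9 at 0.21 and Hells at -0.25 (lowest adjusted p = 0.618). Rbl2, Lin9 and Hells were named after their values were seen. For Dex_CDGHDM minus AM155 limma called 0 as well, with 3 at such an unadjusted p, against 7.37% of all genes tested. Dex_CDGHDM minus Saline called 38 of the 151 higher, led by Kif15, H2afx and Asf1b at 1.22, 0.82 and 0.73, and 5 lower, led by Cdkn1c, Cdkn2b and Ccnd2 at -0.77, -0.59 and -0.46. Of all genes tested 7.59% were higher and 17.5% lower there. AM155 minus Saline called 44 higher, led by Kif15, Racgap1 and H2afx at 0.87, 0.81 and 0.78, and 7 lower, led by Cdkn1c, Cdkn2b and Ccnd1 at -0.84, -0.71 and -0.46. In that comparison 7.82% of all genes tested were higher and 32.7% lower.

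**Figure D4:**
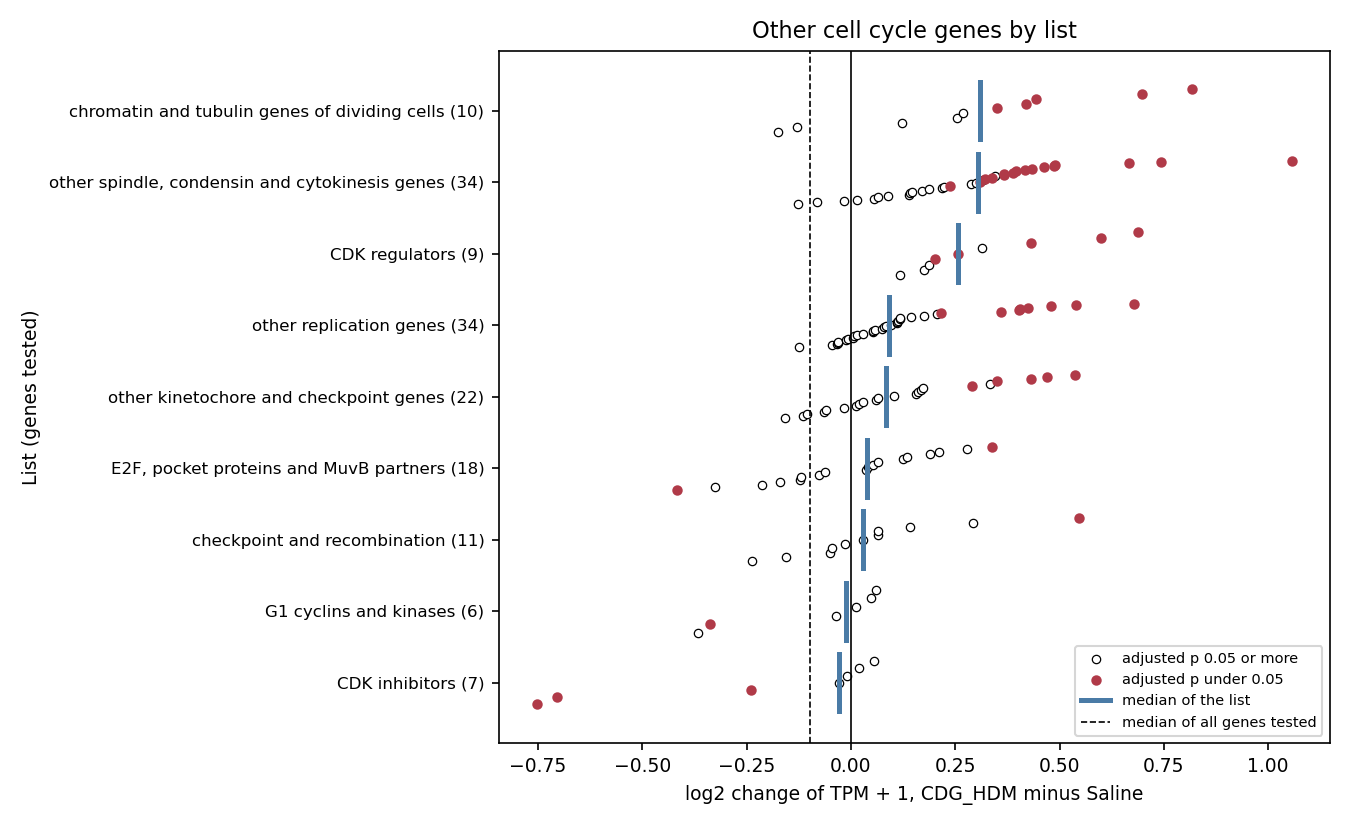
Change of 151 other cell cycle genes for CDG_HDM minus Saline on the log2(TPM + 1) scale (x axis), by list (y axis, with the number of genes tested); filled points passed an adjusted p of 0.05, thick bars are list medians, and the dashed line is the median of all genes tested, -0.10. Filled points lie to the right for spindle, chromatin and replication genes and to the left for the CDK inhibitors.

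Markers of other cell types moved with sensitization as well, where 9.35% of all genes tested were higher and 22.8% lower. For CDG_HDM minus Saline 12 of 14 T cell markers were higher, with summed levels of 296 to 509 TPM in CDG_HDM and 120 to 209 TPM in Saline libraries. Of 10 plasma cell markers 9 were higher, with sums of 2120 to 4070 TPM in CDG_HDM and 260 to 310 TPM in Saline libraries, and of 14 macrophage and dendritic cell markers 13, with 4080 to 7980 TPM in CDG_HDM and 1330 to 1720 TPM in Saline libraries. Germinal centre B cell markers gave 4 higher and 1 lower of 8, B cell markers 3 higher of 10 and thymocyte markers 2 higher of 5 tested. Alveolar type 2 cell markers gave 3 higher of 9, immature granulocyte markers 2 lower of 5 tested and lung tissue markers 1 higher and 4 lower of 8. Endothelial markers were lower in 7 of 8, with sums of 594 to 1190 TPM in CDG_HDM and 1480 to 1800 TPM in Saline libraries, ciliated cell markers in 6 of 8 and erythroid precursor markers in 6 of 7 tested, the last with 1410 to 3940 TPM in CDG_HDM and 5980 to 9100 TPM in Saline libraries. No marker gene was at 0 in every library, and lung markers were abundant, with sums of 34900 to 102000 TPM over all libraries. The part of any of these cells in the members' changes was not tested.

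For Dex_CDGHDM minus CDG_HDM limma called 0 of 14 T cell markers and 0 of the 38 cell cycle genes. Of the T cell markers 12 had an unadjusted p under 0.05, against 3.97% of all genes and 1 of the 38, with a median of -0.44 and sums of 209 to 345 TPM in Dex_CDGHDM and 296 to 509 TPM in CDG_HDM libraries, and a lowest adjusted p of 0.0969. The median of the 38 cell cycle genes in that comparison was 0.02, and the difference between these lists was not tested. In AM155 minus CDG_HDM 2 of 5 immature granulocyte markers and 1 of 7 erythroid markers were higher, with sums of 53.5 to 187 TPM and of 2700 to 5470 TPM in AM155 libraries, against 27.3 to 54.2 TPM and 1410 to 3940 TPM in CDG_HDM. Of all genes tested 0.103% were called in that comparison.

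Of the 38 genes, 10 share exon bases with another protein-coding gene in GENCODE M21. They are Ccne2 with Ints8, Ccna2 with Exosc9, Cdc45 with Ufd1, Mcm7 with Ap4m1 and Cops6, Tk1 with Afmid, Cdc20 with Elovl1, Ube2c with Tnnc2, Kif20a with Cdc23 and Nusap1 with Oip5, all on opposite strands, and Foxm1 with Tex52 and Gm44596 on the same strand. The libraries were stranded, but whether strand was used in counting is not given in the sources used here, so the levels of these 10 are uncertain where the partner is expressed. Of the genes with the largest changes Top2a, Rrm2, Mki67, Bub1b and Mcm5 share none with a coding gene.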

How the data were processed

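Total RNA was depleted of ribosomal RNA and made into stranded, paired-end libraries, with RNA integrity numbers of 6.9 to 8.6, per the labels' protocols. The deposited tables hold TPM computed by the authors, for linear and for circular RNA by gene symbol. The build mm10 and CASAVA 1.9 are named in the submitters' processing notes, while aligner, quantifier, annotation and any filter were not given in the sources used here. TPM keeps no read counts, so depth is unknown and no count test was run. In each library part of the TPM scale fell outside both tables, 13.0 to 32.8% of it in the sensitized or treated groups and 9.57 to 11.1% in Saline.

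Values were transformed as log2(TPM + 1) for genes at 1 TPM or more in at least 5 of 27 libraries. All libraries entered 1 model in limma 3.58.1 (lmFit, contrasts.fit, eBayes with trend; R 4.3.3), with 6 contrasts, two-sided tests and Benjamini-Hochberg adjustment over the 17437 genes. The model was tested on simulated data with independent noise in each gene. That simulation held no shift of whole libraries, so it does not cover the dependence on scaling. Intervals are 95% and unadjusted. Groups came from the labels' titles. Gene positions are from GENCODE M21 and promoter windows from RefSeq (GRCm38.p6). The members and lists were chosen with earlier results of these data known. Any member may be named. Of other cell cycle genes the 3 with the largest change in each direction among those called were named, and Cdkn1a, Cdkn2c, E2f1, Mybl2 and Ccnd1 always. Outside this rule, Ccnd2 for CDG_HDM minus Saline and Rbl2, Lin9 and Hells were also named. Ratios between members were added after the levels were seen. Alternatives were other scalings, a pseudocount of 0.1, no filter, only the groups compared, a replicate block, each library left out and 2 sets of libraries left out, the last added after seeing the data.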

Additional observations from a re-analysis of the deposited data

Results flagged for a closer look

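Within each group of each gene, the highest or lowest library was set against its nearest neighbour by Dixon's test at the 95% level. Of 152 gene and group combinations 12 stood apart, where chance gives about 1 in 20.

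In CDG_HDM 4 the level stood above all other CDG_HDM libraries for Ccna2 at 6.19 TPM (next highest 4.27), Mcm3 at 20 TPM (14.4), Mcm6 at 13.6 TPM (10.0) and Rrm2 at 9.81 TPM (6.95). Cdc6 stood low in CDG_HDM 12 at 2.06 TPM (next lowest 3.05), and Stmn1 stood high in CDG_HDM 3 at 112 TPM (next highest 90.2), close to the lowest Saline library. In Dex_CDGHDM 6 Aurka was high at 5.75 TPM (5.44), Cenpe at 3.76 TPM (2.46) and Cenpf at 5.68 TPM (3.47). In Saline 4 Birc5 was low at 17.4 TPM (25.9), Cenpe at 1.68 TPM (2.36) and Nusap1 at 8.85 TPM (12.4). Saline 4 was the lowest Saline library for 72.6% of all genes tested and for 17 of the 38 members.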

How the results depend on the processing

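In every setting 0 of the 38 genes were called in the treatment comparisons. Median-of-ratios scaling, quantile normalization and rescaling to a common sum, in that order, gave 29, 28 and 30 members higher for CDG_HDM minus Saline, against 16, with 29, 26 and 32 for Dex_CDGHDM minus Saline, against 15, and 30, 30 and 33 for AM155 minus Saline, against 18. Of all genes they called 48, 63 and 35 for Dex_CDGHDM minus CDG_HDM, against 1, then 34, 33 and 38 for AM155 minus CDG_HDM, against 18, and 103, 115 and 61 for Dex_CDGHDM minus AM155, against 14. Among all genes called, the share higher was 30.3% for Dex_CDGHDM minus Saline and 51.9%, 46.5% and 71.3% under these scalings, and 19.3% for AM155 minus Saline and 50.6%, 44.6% and 68.6% under them.

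For Dex_CDGHDM minus CDG_HDM the count over all genes was 0 with a pseudocount of 0.1, 2 with no filter, 2 with only the groups compared, and 5 and 3 in the settings added after seeing the data, which leave out 3 libraries at one end of the second component and 3 with over 200000 TPM of circular RNA. Without the first 3, Dex_CDGHDM minus Saline gave 8249 genes, against 4376. Without the second 3, AM155 minus Saline gave 4518, against 7059, and Dex_CDGHDM minus AM155 3, or 22 with only the groups compared.

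Replicate numbers gave no clear sign of pairing. Over 20 pairs with the same number the correlation of deviations ran from -0.239 to 0.274, and 2 pairs were over 0.1. The median was 0.0245, against -0.0085 for other pairs, which cannot exclude pairing within some groups. A replicate block gave 3315 genes for CDG_HDM minus Saline, against 5607, and 2815 for Dex_CDGHDM minus Saline. In the latter 9 members were higher, against 15 in the main model, and 942 of all genes tested, against 1324. The block gave 10 genes for AM155 minus CDG_HDM and 0 for Dex_CDGHDM minus CDG_HDM.

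Leaving out each library in turn gave 12 to 22 members higher for CDG_HDM minus Saline (12 without Saline 2), 11 to 17 for Dex_CDGHDM minus Saline (11 without Saline 2) and 16 to 22 for AM155 minus Saline, with 1 to 2 members lower there (2 without Saline 4). All genes called ran over 4546 to 7385, 3435 to 6077 and 5520 to 9484 in these comparisons, over 0 to 2 for Dex_CDGHDM minus CDG_HDM, 7 (without AM155 8) to 21 for AM155 minus CDG_HDM and 9 to 34 (without AM155 11) for Dex_CDGHDM minus AM155.

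Members with changes near 0 also took the other sign in some settings, none of them called as deposited. Of these, 4 members were called with the other sign against Saline. Nusap1 became 0.11 and 0.18 in Dex_CDGHDM minus Saline with median-of-ratios scaling and the common sum, and 0.17, 0.15 and 0.24 in AM155 minus Saline under the 3 scalings. With the common sum, Rrm1 became 0.18, Tyms 0.19 and Birc5 0.18 in AM155 minus Saline. The causes of these shifts were not tested. The depth reached is unknown, so the precision of genes at few TPM rests on the spread between libraries alone.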

Other observations

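The circular RNA table listed 8 of the 38 genes by symbol, without junction coordinates, so no value belongs to a particular circular RNA. Bub1b was above 0 in 7 libraries, at 4.44 TPM in Dex_CDGHDM 4, 39.0 TPM in Dex_CDGHDM 5, 37.9 TPM in AM155 5, 5.91 TPM in AM155 6, 37.0 TPM in AM155 11, 40.9 TPM in CDG_HDM 5 and 39.4 TPM in CDG_HDM 14. It was listed at 0 in all 5 Saline libraries. In those with the higher values the circular entry was many times the linear level of Bub1b, which was at most 6.85 TPM in any library. Kif23 was above 0 in 5 libraries at 1.17 to 2.92 TPM, and Tpx2 in 4 at 0.437 to 0.821 TPM. Top2a, Cdc6, Mcm4, Rrm1 and Tyms were above 0 in 1 library each. No test was run on values listed at 0 in most libraries.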
